A study of Caenorhabditis elegans with 2 samples.

Results

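The leucine and serine tRNA genes of Caenorhabditis elegans are the nuclear tRNA genes whose products carry a long variable arm and that RefSeq annotates as tRNA-Leu or tRNA-Ser without marking them pseudogenes. There were 78 of them, 39 for leucine and 39 for serine, among 612 annotated nuclear tRNA genes, which leaves 534 others. They were described in a chromatin immunoprecipitation sequencing experiment (ChIP-seq, which maps where a protein is recovered on the genome) on F26F4.8, a protein annotated with a C2H2 zinc finger. The experiment had 1 group of 2 biological replicates. Whole larvae of strain OP776 were used, at the fourth larval stage (L4) and 48 hours of age, and had been starved at the first larval stage following bleaching. They carried the transgene wgIs776, in which F26F4.8 was fused to TY1, EGFP and 3xFLAG and which also held unc-119(+), in an unc-119(tm4063) mutant background. The antibody was against GFP and the chromatin was sheared by sonication. All samples shared strain, stage and transgene, no precipitation from animals without the tag was analysed here, and every value below is therefore a comparison between genes and not between conditions. Because whole animals were used, more cells bound and more binding per cell cannot be told apart.

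Transfer RNA genes are transcribed by RNA polymerase III from a promoter that lies inside the gene. The factor TFIIIC recognises a pair of short internal elements, the A box near the 5′ end and the B box near the 3′ end, and brings in TFIIIB and the polymerase, which stops at a run of T just after the gene. Leucine, serine and selenocysteine tRNAs of animals have an extra hairpin, the long variable arm, between the anticodon arm and the T arm that holds the B box, so the gene is longer and its boxes lie farther apart.

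The boxes were located as the best match to the A box consensus in the first 40 bases and to the B box consensus in the last 45, on the gene's own strand. The anticodon was read from a stem of 5 base pairs around a loop of 7 bases, with at least 4 pairs formed, and gave 5 leucine and 4 serine families. One gene of each family is shown here because the families differ in which boxes they hold, and the peaks are described by family. Each shown gene had a listed peak. All are 5′ to 3′, from RefSeq's WBcel235 genome (ce11), with the A box and the B box in capitals. They are C04A11.t1 (Leu-CAA; chrX:13665555-13665673, plus strand), which has an intron, C04E7.t1 (Leu-AAG; chrX:353255-353336, minus strand), ZK678.t1 (Leu-CAG; chrX:15742050-15742133, plus strand), C40H5.t1 (Leu-TAA; chrX:11757831-11757914, minus strand), W02H3.t1 (Leu-TAG; chrX:11095673-11095754, plus strand), F42A10.t1 (Ser-AGA; chrIII:6158778-6158859, plus strand), K03F8.t1 (Ser-CGA; chrIII:6513937-6514018, minus strand), C29F7.t2 (Ser-GCT; chrX:13442643-13442724, plus strand) and F28F8.t4 (Ser-TGA; chrV:15547875-15547956, minus strand).
C04A11.t1: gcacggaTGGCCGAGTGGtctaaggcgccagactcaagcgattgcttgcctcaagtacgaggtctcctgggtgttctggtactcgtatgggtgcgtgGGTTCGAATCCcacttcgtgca
C04E7.t1: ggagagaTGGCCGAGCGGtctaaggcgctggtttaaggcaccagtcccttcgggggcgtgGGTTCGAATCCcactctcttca
ZK678.t1: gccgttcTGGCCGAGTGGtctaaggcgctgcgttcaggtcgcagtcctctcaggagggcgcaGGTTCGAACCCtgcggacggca
C40H5.t1: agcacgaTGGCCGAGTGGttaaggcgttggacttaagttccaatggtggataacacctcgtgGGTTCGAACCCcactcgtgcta
W02H3.t1: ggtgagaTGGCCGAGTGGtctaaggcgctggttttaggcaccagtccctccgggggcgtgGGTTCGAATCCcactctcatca
F42A10.t1: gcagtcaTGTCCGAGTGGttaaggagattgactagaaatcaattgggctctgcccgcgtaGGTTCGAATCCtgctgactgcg
K03F8.t1: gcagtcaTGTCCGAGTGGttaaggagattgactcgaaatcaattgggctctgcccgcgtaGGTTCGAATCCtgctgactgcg
C29F7.t2: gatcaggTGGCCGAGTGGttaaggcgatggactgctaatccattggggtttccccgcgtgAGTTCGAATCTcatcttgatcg
F28F8.t4: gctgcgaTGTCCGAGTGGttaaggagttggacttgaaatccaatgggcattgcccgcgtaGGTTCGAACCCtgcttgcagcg

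The joined exons of the leucine and serine genes had a median length of 82 bases, against 72 in the other nuclear tRNA genes. The start of the A box and the start of the B box lay a median of 53 bases apart in the leucine and serine genes, with introns removed, and 43 bases apart in the others. Wide spacing was not limited to them. Among the others, 16 genes without an intron had boxes at least 53 bases apart, a limit chosen after values had been seen, and were 83 to 115 bases long. RefSeq names 4 of them tRNA-Ile, among them T22C1.t1, C36F7.t2 and C36F7.t3, and 3 tRNA-Gly, T22A3.t2, T22A3.t3 and T22A3.t4, and 1 is the selenocysteine gene. None of the 16 had a listed peak, as defined below (0%; 95% Wilson interval 0 to 19.4), 6 of them (these named isoleucine and glycine genes) had no ranked peak, and the signal of the other 10 ran from 17.2 to 59.8. An A box without mismatch to the consensus was present in 47 of the 78 genes (60.3%) and in 86 of the 534 others (16.1%). The consensus has a fixed length, so an A box with an extra or missing base can count as mismatched. The part of this in the difference was not tested. It was present in 38 of 39 leucine genes (97.4%) and in 9 of 39 serine genes (23.1%), all 9 of them Ser-GCT. The serine sequences shown for AGA, CGA and TGA have 1 mismatch in the box. A B box without mismatch was present in 68 of the 78 genes (87.2%) and 435 of the 534 others (81.5%), and it was missing from all 9 Ser-GCT genes. For scale, in windows of 82 bases around the summits of 109456 ranked peaks away from tRNA genes, searched on both strands, an exact A box occurred in 0.25% and an exact B box in 0.257%. A match is a description of the letters and does not show that a factor bound there. Every one of the 78 genes had a run of at least 4 T within 25 bases of its end, as did 98.5% of the others, starting a median of 5 bases after the end.

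A gene was called listed when a peak of the authors' conservative set, which holds peaks called across both replicates at an irreproducible discovery rate of at most 0.01 (IDR, a measure of how poorly a call repeats between replicates), had its summit within 200 bp of the gene. A listed peak lay at 51 of the 78 leucine and serine genes (65.4%; 95% Wilson interval 54.3 to 74.99), against 309 of the 534 other nuclear tRNA genes (57.9%; 53.6 to 61.98) and 58.8% of all 612. The share was 29 of 39 for leucine (74.4%; 58.9 to 85.4) and 22 of 39 for serine (56.4%; 41.0 to 70.7). The intervals cover counting only and treat genes as independent, which copies of 1 sequence and genes sharing a peak are not, and no difference between these shares was tested. For comparison, 1.24% of protein-coding genes had a listed peak within 500 bp of a start site. The authors' lists held 109990 ranked peaks across replicates, of which 0.889% were listed.

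Any ranked peak, listed or not, lay within 200 bp of 71 of the 78 genes (91%) and of 484 of the 534 others (90.6%). The authors' signal value, the peak caller's enrichment in arbitrary units, had a median of 94.9 at those 71 genes (quartiles 64.4 to 119) and 88.0 at the 484 others (60.6 to 122). Among listed genes alone the median was 103 at the 51 leucine and serine genes (90.4 to 125) and 110 at the 309 others (91.5 to 140), so the order of the medians turned round. The signal runs within a list only, since its scale between lists is not stated. The median over all ranked peaks was 23.8.

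The plot of signal by anticodon family shows that nearly every family held both listed and unlisted genes. Leu-TAG was the exception among families of more than 1 gene, with all 3 genes listed, as 3 copies of the same sequence. Leu-AAG, the largest family, had 15 of 19 genes listed, Leu-CAA 5 of 7, Leu-CAG 4 of 6 and Leu-TAA 2 of 3. For serine, Ser-CGA had 5 of 6 listed, Ser-GCT and Ser-TGA 5 of 9 each, and Ser-AGA 7 of 15. Family medians of signal over genes with a ranked peak ran from 68.1 in Leu-TAA to 121 in Ser-TGA. The first rests on 3 genes, and the second leaves out 3 of 9 genes, which had no ranked peak. Within families the range could be wider than that of the medians, as in Leu-CAA, from 49.7 to 286, and Ser-GCT, from 8.49 to 129.

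**Figure D1:**
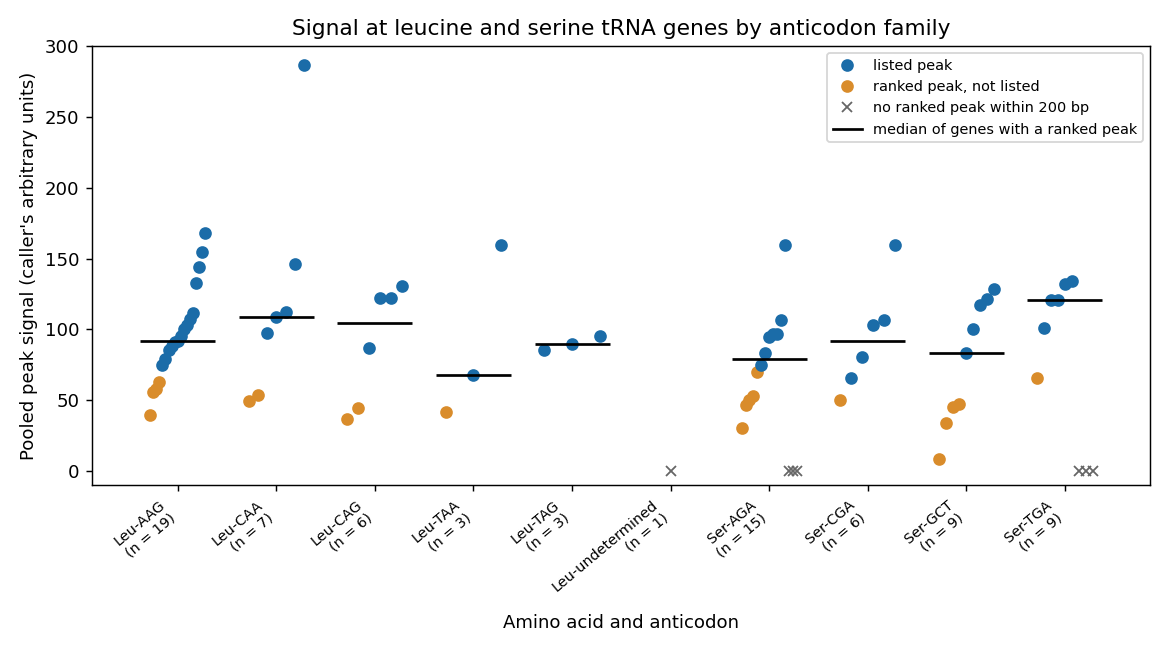
Pooled peak signal (y axis, the caller's arbitrary units) of each leucine and serine tRNA gene by anticodon family (x axis, with the number of genes). Blue points are genes with a listed peak, orange points have a ranked peak that is not listed, crosses at 0 have no ranked peak within 200 bp, and bars are medians over genes with a ranked peak. C04A11.t1 stands alone at 286, and every listed gene lies at 65.7 or above.

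The Leu-CAA genes, whose tRNA reads UUG codons, were the only members with an intron, of 35 to 38 bp. Each had a gene sequence found once among the annotated nuclear tRNA genes. Their introns put the B box 90 to 93 bases after the A box on the gene. C04A11.t1, in an intergenic stretch of X, had the highest signal of all members, 286 in the pooled list, 162 in replicate 1 and 120 in replicate 2. It ranked 11 among the 978 listed peaks, with a global IDR of 7.21e-05. F22B7.t1 (chrIII:8639306-8639425, plus strand), in an intron of the potassium channel gene twk-7, followed with 146 pooled, 75.1 in replicate 1 and 62.7 in replicate 2. C14B9.t2 had 111.99 pooled, 49.9 in replicate 1 and 65.8 in replicate 2, and F42F12.t1 had 109 pooled, 61.97 in replicate 1 and 50.998 in replicate 2. These 4 genes and ZK822.t1 (97.1 pooled, 61.3 in replicate 1 and 42.6 in replicate 2) were listed. B0285.t1 was not, at 53.7 pooled, 38.7 in replicate 1 and 17.9 in replicate 2, and neither was F02D10.t3, at 49.7 pooled, 17.1 in replicate 1 and 31.5 in replicate 2. Joined exons were identical in 6 of the 7 genes, including B0285.t1 and C04A11.t1, and F02D10.t3 differed from them by T53C, counted from the first base of the joined exons. Genes with the same joined exons and boxes thus had signals from 53.7 to 286. Of the 22 other nuclear tRNA genes with an intron, 11 were listed (50%), and their boxes lay a median of 55 bases apart on the gene.

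Leu-AAG held the next highest gene. C04E7.t1 had a signal of 168 pooled, 106 in replicate 1 and 59.3 in replicate 2, and F14B8.t1 (chrX:6903114-6903195, minus strand), in an intron of pes-23, had 154 pooled, 91.7 in replicate 1 and 60.02 in replicate 2. C38C6.t1 (chrII:14635335-14635416, minus strand), in an intron of the chemoreceptor gene sre-13, had 144 pooled, 55.9 in replicate 1 and 88.5 in replicate 2. The replicates ordered these 3 genes differently, with C04E7.t1 first in replicate 1 and C38C6.t1 first in replicate 2. B0244.t2 (chrIII:5769904-5769985, plus strand), between genes, had 133 pooled, 89.1 in replicate 1 and 44.1 in replicate 2. The lowest of the family, F49C5.t3 in an intron of nimk-1, had 39.4 pooled, 34.1 in replicate 1 and 12.3 in replicate 2. In replicate 2 it lay below every listed gene of the family. The replicate 1 value belongs to another peak than the pooled list paired here, for which its unnamed per-replicate columns hold 19.9 and 12.3. The leucine genes of the remaining families were led by C40H5.t1 (Leu-TAA), at 159.5 pooled, 82.6 in replicate 1 and 72.8 in replicate 2. It stood well above the other 2 Leu-TAA genes, F10C1.t2 at 68.1 and T22C8.t1 at 41.7 in the pooled list. In Leu-CAG the highest was C53C7.t3 (chrX:13038960-13039043, minus strand) at 130 pooled, 63.6 in replicate 1 and 64.6 in replicate 2. The lowest was T19C4.t1, in an intron of the G protein gene gpa-1, at 37.1 pooled and 25.9 in replicate 2, with no summit within 200 bp in the list of replicate 1. These genes have the same sequence. The Leu-TAG genes were close together, with C04A2.t1 at 95.05, W02H3.t1 at 89.5 and C16D9.t2 at 85.2 in the pooled list.

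Among serine genes the highest pooled signal was 159.5, at a peak shared by F42A10.t1 (Ser-AGA) and F42A10.t2 (Ser-CGA). Its values were 95.6 in replicate 1 and 63.0 in replicate 2. The summit lay inside F42A10.t1, at base 51, and before F42A10.t2, at base -136 from that gene's 5′ end. The lowest Ser-AGA gene with a ranked peak was F02E11.t1, at 30.2 pooled, 13.4 in replicate 1 and 21.8 in replicate 2. Both replicates placed it far below F42A10.t1, a gene of the same sequence. The lowest Ser-CGA gene was Y7A5A.t4, at 50.4 pooled, 33.7 in replicate 1 and 19.5 in replicate 2. Its peak was shared with Y7A5A.t1 (Ser-AGA), a divergent neighbour. In Ser-TGA, K07A1.t1 had 134 pooled, 71.7 in replicate 1 and 64.4 in replicate 2, and F28F8.t4 had 132 pooled, 70.4 in replicate 1 and 49.03 in replicate 2. T06H11.t1, in an intron of the ion channel gene unc-58, had 121 pooled, 59.9 in replicate 1 and 54.2 in replicate 2, and K02A4.t1 had 100.9 pooled, 48.7 in replicate 1 and 61.3 in replicate 2. These 4 genes have sequences of their own and all were listed. The lowest with a peak was B0395.t1 at 65.6 pooled, 22.5 in replicate 1 and 40.7 in replicate 2. In Ser-GCT, E03E2.t1 (chrX:5708028-5708109, plus strand), in an intron of the vesicular monoamine transporter gene cat-1, led with 129 pooled, 72.4 in replicate 1 and 61.3 in replicate 2. C37A5.t1, of identical sequence, had the lowest value of all members with a ranked peak, 8.49 pooled and 2.65 in replicate 2, with no summit within 200 bp in the list of replicate 1.

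Identical genes differed in signal. Of the 78 genes, 55 fell into 13 groups of identical sequence and 23 had a sequence of their own, which gives 36 distinct sequences. In 8 of the 13 groups some copies were listed and others were not, in 4 all copies were listed, and in 1 none was. The group of F42A10.t1 had 11 copies, of which 6 were listed, 9 had a ranked peak and the signal ran from 30.2 to 159.5. The 9 copies of C04E7.t1, all on X, ran from 56.0 to 168, with 7 listed. The 7 copies of E03E2.t1 ran from 8.49 to 129, a 15.2-fold range, with 4 listed. Its lower end is 1 copy, C37A5.t1, at an IDR of 0.736 and below the median of 23.8 over all ranked peaks. The next lowest copy, F22H10.t1, had 45.4. The 7 Leu-AAG copies led by T05A8.t1 ran from 39.4 to 111.7, with 6 listed. Among listed copies, the peaks of C53C7.t1, R03E1.t1 and F02D10.t2 lay nearer another tRNA gene. The pair ZK678.t1 and C43G2.t1 (Leu-CAG) lay at 122 and 122, closer than any other group. The plot of identical copies shows this range group by group, among genes whose own letters, boxes included, are the same. Reads inside identical genes cannot be placed, and how the authors handled such reads is not given in the sources used here. Over each gene with 100 bp on either side, the share of 50-base words found once in the genome had a median of 82.8% at listed and 83.3% at unlisted members.

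**Figure D2:**
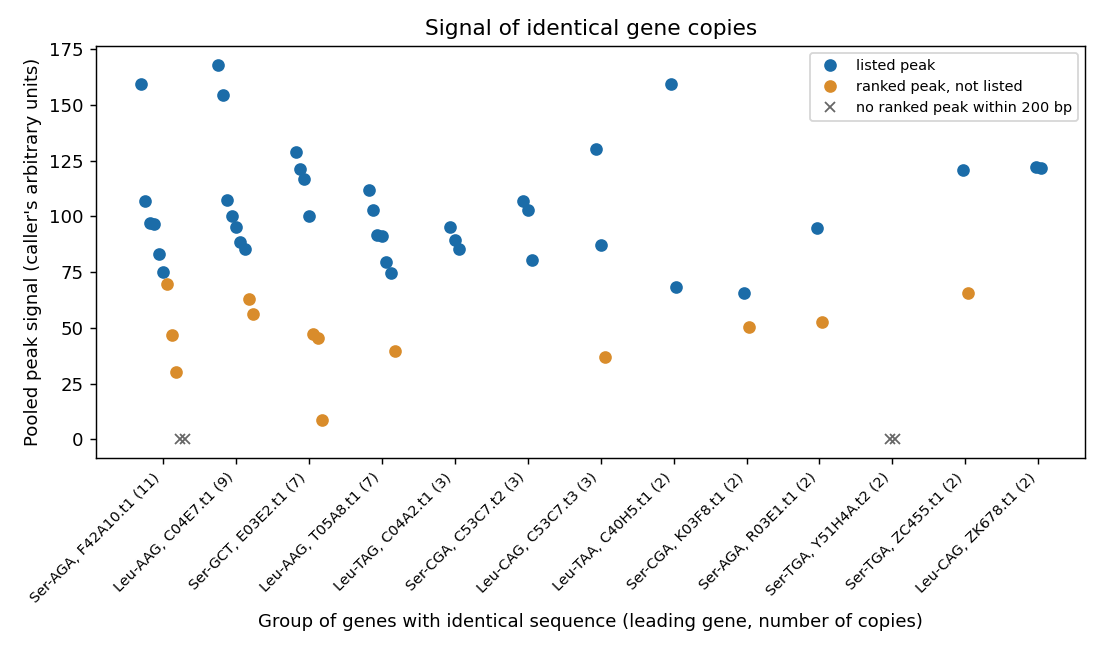
Pooled peak signal (y axis, the caller's arbitrary units) of genes with identical sequence, 1 column per group (x axis, with family, leading gene and number of copies). Blue points are listed, orange points have a ranked peak that is not listed and crosses at 0 have none. Copies of E03E2.t1 run from 8.49 (C37A5.t1, the next lowest being 45.4) to 129, and those of C04A2.t1 from 85.2 to 95.05.

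Genes with a sequence of their own were listed in 7 of 13 cases among leucine genes, against 22 of 26 copied ones, and in 6 of 10 cases among serine genes, against 16 of 29 copied ones. Among the other nuclear tRNA genes the counts were 44 of 120 for single genes and 265 of 414 for copied ones. These differences were not tested. The 6 serine genes include F42A10.t2, and the 16 include C53C7.t1, R03E1.t1 and F02D10.t2, whose peaks all lay nearer another tRNA gene. The single genes that were listed are 5 of the Leu-CAA genes, C38C6.t1, B0244.t2, F42A10.t2, K07A1.t1, F28F8.t4, T06H11.t1, K02A4.t1 and C29F7.t2, which had 83.2 pooled, 32.3 in replicate 1 and 48.3 in replicate 2.

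Several single genes without a listed peak differ by a few bases from a listed gene of their family. Those compared here were chosen after their values had been seen, no test was made, and positions count from 1 at the gene's 5′ end, with the listed gene's base first. F28F8.t1 differs from F28F8.t4, in the same cluster on V, by T10C in the A box and by G58A, and had no ranked peak within 200 bp in the pooled list or in either replicate. T22C8.t1, in an intron of cutl-12, differs from C40H5.t1 by A31C and T58G, both outside the boxes, and had 41.7 pooled and 30.5 in replicate 2, with no summit within 200 bp in the list of replicate 1. F08F1.t3 differs from C04E7.t1 at 8 bases, among them G10C and G17T in the A box and G61A in the B box. It had 58.0 pooled and 35.3 in replicate 1, with no summit within 200 bp in the list of replicate 2. The pooled peak did not overlap the gene, and its summit lay upstream, at base -134. Y7A5A.t5 differs from F42A10.t1 by A3C only and also had no ranked peak in these lists. ZK1010.t1, in an intron of the transporter gene snf-7, lacks 5 bases of C29F7.t2, positions 59 to 63, which reach into the B box. It has 2 other mismatches to C29F7.t2. Its signal was 34.0 pooled and 36.4 in replicate 1, with no summit within 200 bp in the list of replicate 2. The pooled summit lay at base 108, beyond the gene's 3′ end. T14B4.t1 is 1 base longer than C04E7.t1, at its position 40 behind the anticodon, with 3 other mismatches, and its anticodon stem formed only 3 pairs, so its family was not determined. It had no ranked peak within 200 bp in the pooled list or in replicate 2 and a signal of 54.6 in replicate 1. VK10D6R.t1 (Leu-CAG) is 16 bases longer than ZK678.t1 and had 44.6 pooled, 25.3 in replicate 1 and 17.1 in replicate 2. Listed genes also differed from each other, given here with the base of F28F8.t4 or F42A10.t1 first. K02A4.t1, listed at 100.9 pooled, differs from F28F8.t4 at 10 bases, among them A68T and C69T in the B box. K03F8.t1, listed at 65.7 pooled with its summit beyond the gene's 3′ end, differs from F42A10.t1 by A34C only. Unlisted genes also include copies with no base difference from a listed gene, and the part of the base differences in these values was not tested. Sequences of the unlisted genes compared, apart from VK10D6R.t1, follow, with the best matches to both boxes in capitals. They lie at chrV:15550612-15550693, plus strand (F28F8.t1), chrII:8631957-8632040, minus strand (T22C8.t1), chrX:8409296-8409377, minus strand (F08F1.t3), chrX:15770009-15770090, minus strand (Y7A5A.t5), chrIII:13009423-13009499, plus strand (ZK1010.t1) and chrII:6721766-6721848, plus strand (T14B4.t1).
F28F8.t1: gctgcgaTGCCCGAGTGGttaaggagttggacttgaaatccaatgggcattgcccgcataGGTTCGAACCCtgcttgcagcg
T22C8.t1: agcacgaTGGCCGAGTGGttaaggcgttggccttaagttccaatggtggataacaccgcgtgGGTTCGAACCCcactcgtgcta
F08F1.t3: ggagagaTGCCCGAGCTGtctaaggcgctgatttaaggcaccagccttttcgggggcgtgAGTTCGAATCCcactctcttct
Y7A5A.t5: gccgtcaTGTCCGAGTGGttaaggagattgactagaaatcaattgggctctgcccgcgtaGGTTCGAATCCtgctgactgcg
ZK1010.t1: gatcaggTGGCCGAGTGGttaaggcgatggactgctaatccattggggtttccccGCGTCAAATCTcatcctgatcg
T14B4.t1: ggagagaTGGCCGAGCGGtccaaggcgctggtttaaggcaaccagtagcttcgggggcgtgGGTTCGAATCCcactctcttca

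In all, 7 members had no ranked peak within 200 bp. Beside F28F8.t1, Y7A5A.t5 and T14B4.t1 these were the Ser-AGA copies F22F1.t2, with 18.7 in replicate 2 alone, and F22F1.t4, with 44.8 in replicate 2 alone, and the identical Ser-TGA genes Y51H4A.t2 and Y51H4A.t6, which had none in either replicate. The Y51H4A pair differs from F28F8.t4 by 4 bases, of which T16C lies in the A box and G66A and C69T in the B box. With its flanks, the pair had only 33.5% of 50-base words found once in the genome, the lowest share of all members, and the part of this in the missing peaks was not tested. F22F1.t4 also had a low share, 66.1%. A listed copy, F22F1.t8, lay in the same cluster with a share of 65.2% and a signal of 97.0.

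By the exact letters of the boxes, the A box of C04E7.t1 was found in 19 leucine genes, of which 15 were listed. That of C04A11.t1 was found in 28 leucine and serine genes, with 19 listed, and that of F42A10.t1, which departs from the consensus by 1 base, in 27 serine genes, with 17 listed. The remaining 4 genes had 3 other A boxes with 1 or 2 mismatches and none was listed. The B box of C04A11.t1 was found in 53 genes, with 37 listed, that of ZK678.t1 in 10, with 7 listed, and that of C29F7.t2, with 2 mismatches, in 8 Ser-GCT genes, with 5 listed. Shares were thus 62.5% to 78.9% for the 6 common box sequences, with and without mismatches. The B box that Y51H4A.t2 and VK10D6R.t1 share matches the consensus and was found in 4 genes, with 1 listed. Box sequence, family and copy number go together in these genes and cannot be told apart.

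The summit lay inside the gene at 39 of the 51 listed leucine and serine genes (76.5%), upstream at 9 and downstream at 3, against 210 of the 309 other listed tRNA genes inside (68%), 73 upstream and 26 downstream. At the 51 listed leucine and serine genes the summit lay a median of 34 bp from the 5′ end (quartiles 12.5 to 48.5), against 19 bp at the 309 other listed tRNA genes (3 to 40). The A box started at a median of base 8 in both sets, and the B box at base 61 in the leucine and serine genes and base 51 in the others. The summit lay between the boxes at 32 of 51 leucine and serine genes (62.7%; 95% Wilson interval 49.03 to 74.7), against 106 of 309 others (34.3%; 29.2 to 39.8). These shares are over stretches of unlike length. Box starts lay a median of 53 bases apart on the leucine and serine genes, 90 to 93 on those with an intron, and 43 on the others. The shares were not adjusted for this. The summit lay in the A box at 5 (9.8%), against 61 of the others (19.7%), and in the B box at 1, against 15. Relative to the midpoint between the boxes, its median was -9.5 bp in the leucine and serine genes and -15.5 bp in the others, negative values being towards the 5′ end. The difference in position was not tested. It is smaller than the quartile range of either set, and with 1 value per distinct sequence the median of the leucine and serine genes was 28.5 bp.

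**Figure D3:**
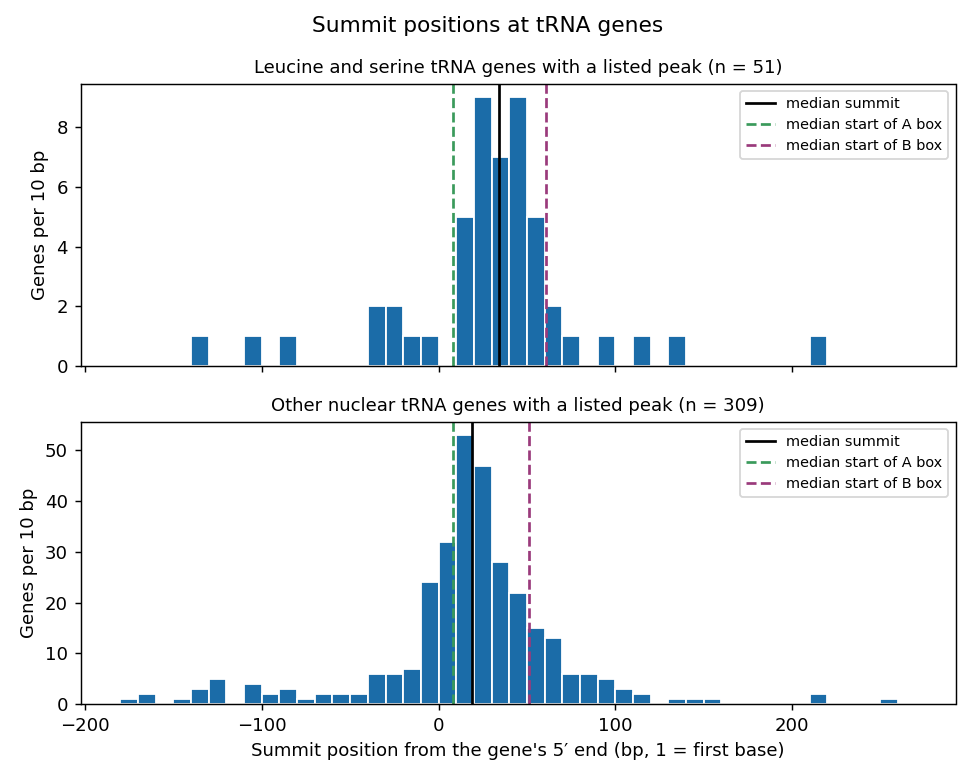
Position of the listed summit from the gene's 5′ end (x axis, bp, 10-bp bins) against number of genes (y axis), for the leucine and serine tRNA genes above and the other nuclear tRNA genes below. Lines mark the median summit and the median starts of the A box and B box. The median summit lies at 34 bp in the leucine and serine genes and at 19 bp in the others.

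Leucine genes had the summit inside the gene in 26 of 29 cases and serine genes in 13 of 22, with 7 serine summits upstream and 2 downstream. The plot of summits along each gene shows that the distant serine summits, at C53C7.t1, R03E1.t1, F42A10.t2 and F02D10.t2, lay at bases -104, -81, -136 and 213 in that order. Each of these 4 peaks was nearer another tRNA gene, namely C53C7.t2, R03E1.t2, F42A10.t1 and rte-5. In the Leu-CAA genes with introns, the summit lay at base 27 in C04A11.t1, 39 in F22B7.t1, 42 in C14B9.t2, 68 in ZK822.t1 and 93 in F42F12.t1, in each case between the boxes. The lowest listed gene, K03F8.t1, had its summit at base 139, beyond the gene's 3′ end.

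**Figure D4:**
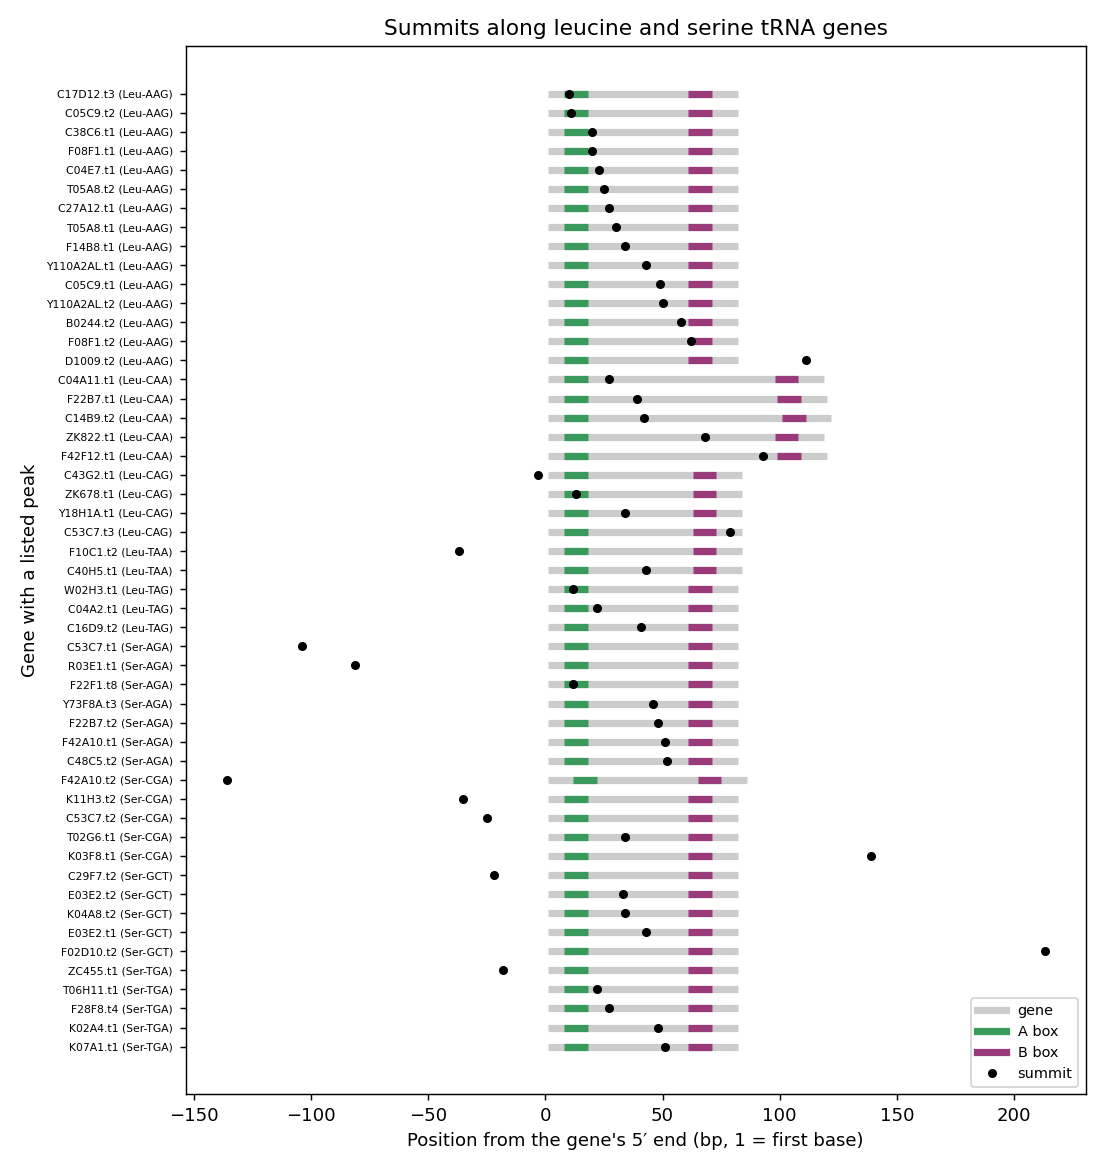
Listed summits (black points) along the 51 leucine and serine tRNA genes with a listed peak (rows, by family), in bp from the gene's 5′ end (x axis). Grey bars are the genes, with A boxes in green and B boxes in purple. Most points fall between the boxes, and the Leu-CAA genes are longer because of their introns.

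The replicates gave the same broad order. A ranked peak lay within 200 bp of 66 members in replicate 1 and 71 in replicate 2, and 63 had one in both. At 6 members with a pooled ranked peak the list of replicate 1 had no summit within 200 bp, and at 2 members that of replicate 2 had none. The pooled list's unnamed per-replicate columns still held values there, of 9.44 to 48.1 at the 6 and of 9.20 to 17.4 at the 2, so a peak was paired. Over these 63, Spearman's rho of the signals was 0.65 and Pearson's r of the log2 signals was 0.64, against 0.70 and 0.70 over 422 other tRNA genes. These are descriptions over genes that share both libraries and often their sequence. Replicate 1 was higher at 33 of 63 members, with a median log2 difference of 0.14 and an SD of 0.54. The largest differences (replicate 1 over replicate 2, log2) were 1.47 at F49C5.t3, 1.11 at B0285.t1 and 1.02 at B0244.t2. At F49C5.t3 the lists gave different peaks, and over the unnamed columns of the paired peak the difference was 0.70. With each replicate's own thresholded list, 24 members had a peak in replicate 1 (30.8%, against 33.3% of all nuclear tRNA genes) and 27 in replicate 2 (34.6%, against 34% of all). A thresholded peak lay at 14 members in both replicates (17.9%, against 22.4% of all nuclear tRNA genes) and at 23 in 1 of them. Another 14 listed members had none in either and were listed in the pooled set alone (17.9%, against 16.2% of all). No unlisted member had a thresholded peak in either replicate.

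**Figure D5:**
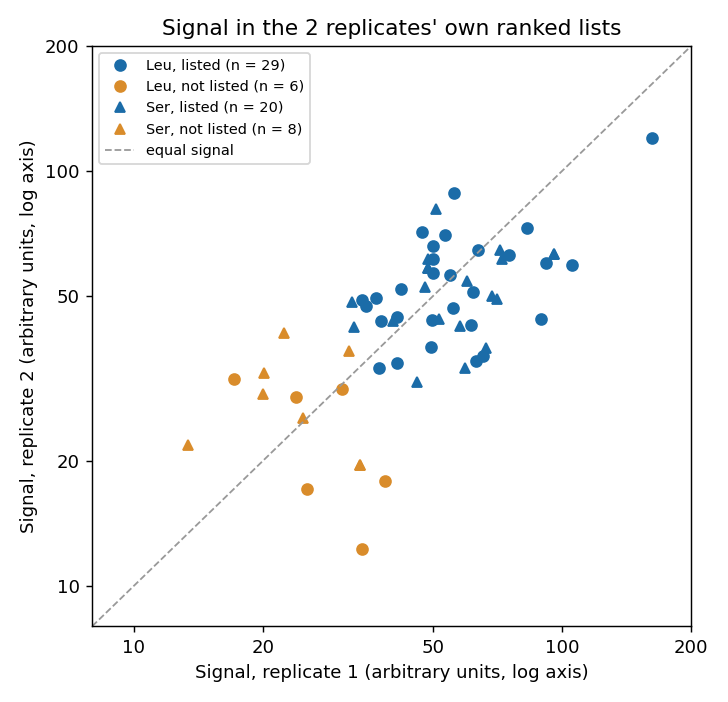
Signal of the 63 leucine and serine tRNA genes with a ranked peak in both replicates, replicate 1 (x axis) against replicate 2 (y axis), both in arbitrary units on log axes. Circles are leucine and triangles serine genes, blue listed and orange not listed, and the dashed line is equal signal. C04A11.t1 lies at the upper right, at 162 and 120, and the 14 unlisted genes lie at 38.7 or below in replicate 1 and at 40.7 or below in replicate 2.

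The threshold fell within a continuous range of values. Just inside it lay K03F8.t1 (IDR 0.00853, signal 65.7), C29F7.t2 (0.00762, 83.2) and F10C1.t2 (0.00752, 68.1). Just outside it lay Y51H7BR.t1 (0.0122, 69.8), C05E7.t3 (0.0267, 63.1) and B0395.t1 (0.0779, 65.6). The signals of these 6 genes overlapped.

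Listed and unlisted members were both found between genes, in introns and in exons, and on X and every autosome. Listed were 28 of 41 intergenic genes (68.3%), 21 of 33 in introns of protein-coding genes (63.6%) and 2 of 4 overlapping exons. In introns the count was 10 of 17 on the host's strand and 11 of 16 on the opposite strand. Shares by context and host strand were not computed for the other nuclear tRNA genes, so these counts have no background beside them. X held 35 of the 78 genes (44.9%), against 241 of the 534 others (45.1%). On X 24 of 35 were listed (68.6%), and on the autosomes 27 of 43 (62.8%). Of the other nuclear tRNA genes, 57.7% were listed on X and 58% on the autosomes. The counts on the autosomes were 5 of 6 on I, 7 of 12 on II, 8 of 12 on III, 3 of 6 on IV and 4 of 7 on V. Counts by single autosome were not made for the others either. The A and T share of the 50 bp before the gene had a median of 56% at listed and 58% at unlisted members. The T run had a median length of 6 at listed and 5 at unlisted members, and the nearest other tRNA gene lay a median of 4601 bp away at listed and 6608 bp at unlisted members. None of these differences was tested.

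Genes of the wider tRNA pathway were searched within 500 bp of their start sites. Of the 10 names, 9 were found in the annotation, 8 had a ranked peak and 1 had a listed peak. The share of all genes with a ranked peak near a start site was not computed, so the 8 has no background beside it. Ranked peaks numbered 109990, with a median signal of 23.8. The listed gene was rpr-1, the RNA component of RNase P, which trims the 5′ end of tRNA precursors and is itself made by RNA polymerase III in animals, at a signal of 332. The leucine synthetase genes had 7.46 (lars-1) and 40.8 (lars-2) and the serine synthetase genes 43.3 (sars-1) and 29.4 (sars-2), all unlisted. Which of them charge the tRNAs of these nuclear genes was not examined. The TFIIIB genes brf-1 (29.0) and tbp-1 (23.1) were unlisted, and rpc-1, of RNA polymerase III, had no ranked peak. The gene for selenocysteine tRNA, K11H12.t1, whose product also has a long variable arm and is first charged with serine, was unlisted at 39.2.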

How the data were processed

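Members and lists were chosen with earlier results of these data known. The authors deposited peak lists on ce11, per the file records. Per the file records, the authors made the deposited signal values with a peak caller, as its enrichment per peak against an input, from pooled reads or from a single replicate. The authors made the deposited −log10 values by comparing pairs of peak lists, and those used are of the global IDR, converted here to the IDR. Peak caller, aligner and read numbers: not given in the sources used here. Depth is thus unknown, and no limit from depth was set. Per-replicate values came from each replicate's own list, and a gene with several ranked peaks took the highest signal.

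Genes came from Ensembl and isotypes from RefSeq, both on WBcel235 (ce11), with the same chromosomes as the lists. Coordinates are 1-based. Counts and medians were computed with Python 3.11.15, pandas 2.3.3 and scipy 1.17.1, with no test, since there was 1 group. Assignment and box finding were tested on simulated data.

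Named were the 12 members with the highest signal, the highest and lowest of each family, those without a ranked peak, 3 on either side of the IDR threshold, those with an intron or a sequence of their own, and the 3 whose replicates differed most. The labels call the replicates biological and say no more of their cultures, so the spread between them may be partly technical.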

Additional observations from a re-analysis of the deposited data

How the results depend on the processing

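The count of 51 listed leucine and serine genes became 12 at an IDR of at most 0.001 (7 leucine and 5 serine), and 24 to 27 when either replicate was left out (13 to 14 leucine, 11 to 13 serine). The 22 serine genes became 13 with the summit required inside the gene, and also 13, of 25 tested, among genes with no other tRNA gene within 400 bp. All other alternatives moved these counts by less than 1.5 times, from 39 to 55 for both amino acids together, 26 to 30 for leucine and 18 to 25 for serine. The median signal of 94.9 became 91.5 in the other pooled list, 88.9 with genes without a ranked peak at 0, 90.4 among genes with no other tRNA gene within 400 bp, and 44.5 to 49.1 when a replicate was left out, on that replicate list's own scale. The median summit position of 34 bp became 33 in the other thresholded set, 30 to 31 without a replicate and 28.5 with 1 value per distinct sequence. The cause of these shifts was not tested, beyond the construction of each alternative. No paired analysis was possible because there was 1 group. Depth, mapping of reads in identical copies and the absence of an untagged control limit every value.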
